A study of Mus musculus with 6 samples.

Results

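Hyaluronan turnover in the lung was examined through 8 genes of the deposited count table, chosen by name: the hyaluronan synthases Has1, Has2 and Has3, the degrading genes Cemip, Hyal1 and Hyal2, and the receptors Cd44 and Stab1. They are 8 of 56262 genes in the table, and 7 of them passed the filter on low counts that left 17120 genes for testing. The exception was Has2. Cemip was picked because its measured level differed between the genotypes in these lungs, and the other members were listed by function with that result known. For all 8 members the difference between genotypes is therefore given as a description, and no test of it is read.

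The study asked what is lost when RBM47, an RNA-binding protein, can no longer be modified by the ubiquitin-like protein ISG15 at a lysine pair. Lungs came from homozygous knock-in mice carrying RBM47 K329R;K332R (R/R) and from wild-type littermates (WT), with 3 mice per genotype. The substitutions were introduced by CRISPR/Cas9 in the germline on the C57BL/6 background, so every cell type of the R/R lung carries them. All mice were 8 weeks old and untreated, and whole-lung RNA was sequenced.

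Hyaluronan is a long, unbranched polysaccharide of the extracellular matrix. Unlike other glycosaminoglycans it is spun out at the plasma membrane, where the synthases join UDP-glucuronic acid and UDP-N-acetylglucosamine and push the growing chain out of the cell. The chain is cut with the help of CEMIP, also called KIAA1199 or HYBID, and by the cell-surface hyaluronidase CEMIP2, also called TMEM2. HYAL2, a GPI-anchored enzyme, and HYAL1, a lysosomal enzyme, also cut it, and lysosomal exoglycosidases finish the breakdown. Cells bind hyaluronan through CD44 and, in lymphatic endothelium, LYVE1, while the scavenger receptors stabilin-1 and stabilin-2 take up matrix fragments and other ligands. In the lung, hyaluronan binds water in the interstitium, and its fragments are known as signals in injury and inflammation.

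The libraries held 16501092 to 18141067 assigned read pairs, so that 3 counts correspond to 0.166 to 0.182 CPM, the count scaled to the library total. Libraries of the same genotype differed by more than sampling noise (chi-square per degree of freedom 5.65 to 9.09), and no pair was treated as a repeated library. Rbm47 mRNA reached 32.7, 33.5 and 34.1 CPM in the R/R lungs and 28.8, 30.5 and 34.4 CPM in the WT lungs, overlapping between the genotypes. Gene counts do not show the substitutions, so this level does not check the genotype labels. Isg15, which encodes the modifier, reached 7.99, 10.9 and 10.7 CPM in the R/R lungs and 12.1, 17.3 and 11.1 CPM in the WT lungs (edgeR adjusted p = 0.265). The defining genes of the labelled tissue were present: the summed level of 7 lung epithelial markers was 31900 to 35300 CPM in the R/R lungs and 25700 to 32500 CPM in the WT lungs. Across all genes tested, edgeR called 300 at an adjusted p of 0.05, 111 higher and 189 lower in R/R lungs, or 1.75% of genes tested, with 1.10% called lower.

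Levels of the 8 members were first set in order by RPKM, which divides by gene length and so allows genes to be compared, over the 6 lungs together. Hyal2 was the most abundant member (28.5 ± 2.61 RPKM, SD, n = 6), followed by Cd44 (24.7 ± 1.78) and Stab1 (18.8 ± 2.29). Hyal1 came next at 5.75 ± 0.448 RPKM, and Has3 at 0.813 ± 0.122 RPKM. The lowest members were Cemip (0.293 ± 0.242 RPKM), Has1 (0.288 ± 0.134 RPKM) and Has2 (0.0691 ± 0.0287 RPKM). Among these 8 genes, the mean levels of Hyal2, Cd44, Stab1 and Hyal1 stood above those of the synthases and of Cemip, although the place of Hyal1 is uncertain because of shared exons described further on.

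Neighbours in this order were compared within lungs by an exact two-sided sign-flip permutation test of log2(RPKM + 0.1), over 7 pairs. In 6 pairs the higher gene was higher in 6 of 6 lungs, with p = 0.0312, the smallest value that 6 lungs allow in this exact test (Benjamini-Hochberg adjusted p = 0.0365). The mean log2 differences of those pairs ran from 0.20 ± 0.19 (SD) for Hyal2 over Cd44 to 2.69 ± 0.28 for Hyal1 over Has3. The pairs were set from the same values, and each gene was divided by the same length in every lung. An error in that length would repeat in all lungs, so the test cannot tell it from a difference in level. A small difference such as that of Hyal2 over Cd44 therefore depends on the lengths used. Cemip and Has1 could not be ordered: Cemip was above Has1 in 2 of 6 lungs, both of them WT, and below it in 3 of 3 R/R lungs, with a mean log2 difference of -0.10 ± 1.21 (exact permutation p = 0.781).

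**Figure D1:**
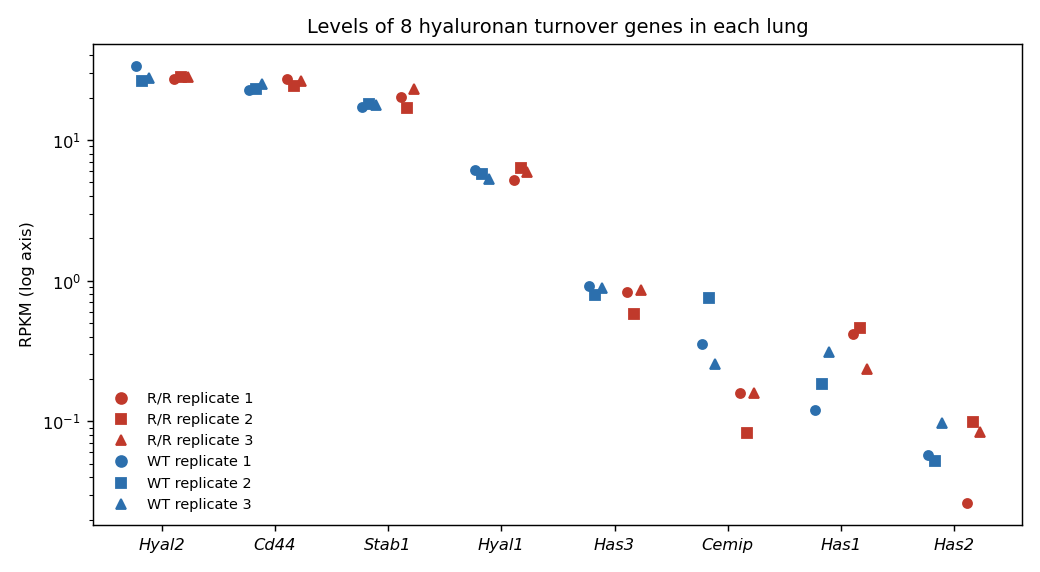
Level of each of the 8 members in each lung, in RPKM on a log axis, with genes ordered by their mean over 6 lungs; blue symbols are WT lungs, red symbols are R/R lungs and the symbol shape gives the replicate. Hyal2, Cd44 and Stab1 lie between 16.8 and 33.7 RPKM in every lung, and Cemip is the only gene of the 8 whose red and blue symbols do not overlap.

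Among the synthases, Has3 (ENSMUSG00000031910.14, GRCm38 chr8:106870242-106884566, plus strand), whose enzyme is known for making shorter chains, supplied most of the transcript. Its level was 0.826, 0.581 and 0.859 RPKM in R/R lungs and 0.923, 0.796 and 0.890 RPKM in WT lungs. The genotypes overlapped, and the fitted log2 fold change of R/R over WT was -0.20 (SE 0.19, 95% interval -0.61 to 0.21). Of the summed RPKM of the 3 synthases, Has3 made up 50.8% to 73.0% in R/R lungs and 68.6% to 83.8% in WT lungs, again overlapping. The gene shares 352 exon bases, 5.52% of its exon length, with Chtf8 on the opposite strand, and counting did not use strand.

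Has1 (ENSMUSG00000003665.7, chr17:17843323-17855205, minus strand) was counted with 34, 35 and 18 read pairs in R/R lungs and 9, 15 and 24 in WT lungs. These correspond to 1.89, 2.09 and 1.06 CPM and to 0.547, 0.828 and 1.41 CPM. R/R replicate 3 lay below WT replicate 3, so the genotypes overlapped, and the log2 fold change was 0.85 (SE 0.39, 95% interval -0.01 to 1.71). Has1 made up 19.9% to 40.5% of synthase RPKM in R/R lungs and 11% to 24.0% in WT lungs. The summed level of 6 mesothelial markers stood at 355, 360 and 271 CPM in the R/R lungs and at 236, 246 and 287 CPM in the WT lungs. R/R lungs had higher mean levels of 5 of these 6 markers, and Lrrn4 alone was called (log2 fold change 1.01, edgeR adjusted p = 0.0124). The 6 lungs fell in the same order for Has1 and for this sum, which was noticed after the values were seen, and the part of mesothelial RNA in the Has1 values was not tested.

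Has2 (ENSMUSG00000022367.7, chr15:56665627-56694539, minus strand), which encodes the synthase needed for embryonic heart development, was close to the limit of detection. It was counted with 2, 7 and 6 read pairs in R/R lungs and 4, 4 and 7 in WT lungs. A difference between genotypes was not detectable at this depth. It also shares 182 exon bases, 4.30% of its exon length, with the opposite-strand gene Has2os. Without strand, read pairs within those bases cannot be assigned to either gene, so these few counts may be off.

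Cemip (ENSMUSG00000052353.13, chr7:83932857-84086502, minus strand, 12232 exon bases) was the member with the lowest values in R/R lungs relative to WT lungs. It was counted with 35, 17 and 33 read pairs in R/R lungs and 71, 166 and 53 in WT lungs, which correspond to 1.94, 1.02 and 1.94 CPM and to 4.31, 9.16 and 3.10 CPM. Every R/R lung lay below every WT lung, and WT replicate 2 stood well above the other WT lungs. Mean levels were 1.63 ± 0.535 CPM with the knock-in and 5.53 ± 3.21 CPM without it (SD, n = 3 each). The fitted log2 fold change was -1.75 (SE 0.40, 95% interval -2.62 to -0.89), or a level 3.37-fold higher in WT lungs.

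Counting error alone can be set beside the Cemip counts. The exact Poisson 95% interval, which leaves out differences between mice, was 142 to 193 for the 166 read pairs of WT replicate 2. For the 53 of WT replicate 3 it was 39.7 to 69.3, and for the 71 of WT replicate 1 it was 55.5 to 89.6, so these lungs overlapped each other and not WT replicate 2. In R/R lungs the intervals were 24.4 to 48.7 for replicate 1, 9.9 to 27.2 for replicate 2 and 22.7 to 46.3 for replicate 3. Those of R/R replicates 1 and 3 overlapped that of WT replicate 3, so counting error alone does not separate these lungs. Leaving out each lung in turn gave log2 fold changes of -2.04 to -1.17, the value nearest 0 being that without WT replicate 2, and the other tools, scalings, filters and designs gave -1.76 to -1.64. No other annotated gene shares exon bases with Cemip, so its counts carry no such ambiguity.

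The region around the Cemip start is shown because Cemip had the largest difference among the members and its chromosomal surroundings are described further on. The RefSeq promoter table (GRCm38.p6) gave a promoter for 6 of the 8 members, from 250 bases before to 50 bases after the gene start. The Cemip sequence at chr7:84086456-84086755 on the minus strand is printed 5′ to 3′, with capitals marking matches to GGGCGG (read here as its reverse complement CCGCCC) and to TATAAA.
Cemip promoter: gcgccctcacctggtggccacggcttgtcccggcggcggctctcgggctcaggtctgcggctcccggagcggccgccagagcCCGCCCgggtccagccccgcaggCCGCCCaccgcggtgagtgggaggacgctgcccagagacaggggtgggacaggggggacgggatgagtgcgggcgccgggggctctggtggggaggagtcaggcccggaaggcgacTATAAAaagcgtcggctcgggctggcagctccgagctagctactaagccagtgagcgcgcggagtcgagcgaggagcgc

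Its GC content was 73.7%, and it held 33 CpG dinucleotides, more than 91.4% of the 32851 promoters of the same length, whose medians were 52.7% and 7. GGGCGG was searched on both strands with TATAAA and CCAAT. Its 2 matches began 168 and 145 bases before the Cemip start, and 35.7% of all promoters held at least 1 match. TATAAA began 29 bases before the start, the distance at which a TATA box usually lies, and 13.6% of all promoters held these letters anywhere in the window. CCAAT was not found in the Cemip window, and 37.4% of all promoters held it. The promoters of Has1, Hyal1, Hyal2, Cd44 and Stab1 had a GC content of 57.0% to 58.3% and 5 to 18 CpG dinucleotides, and none held TATAAA. These matches are descriptions of letters in the reference and say nothing about factor binding in these lungs.

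The hyaluronidases among the members differed little between genotypes. Hyal2 (ENSMUSG00000010047.12, chr9:107567945-107572779, plus strand), which starts the breakdown of long chains at the cell surface, reached 90.0, 91.9 and 93.2 CPM in the R/R lungs and 111, 87.2 and 90.3 CPM in the WT lungs. WT replicate 1 was the highest lung and the other 5 lay close together, with a log2 fold change of -0.07 (SE 0.08, 95% interval -0.25 to 0.12). Hyal1 (ENSMUSG00000010051.15, chr9:107576927-107581710, plus strand), which acts in lysosomes, reached 19.6, 23.9 and 22.3 CPM in the R/R lungs and 23.0, 21.7 and 19.9 CPM in the WT lungs. The highest and the lowest lung were both R/R lungs, and the log2 fold change was 0.03 (SE 0.10, 95% interval -0.19 to 0.24). Hyal1 shares 1920 exon bases, 50.8% of its exon length, with Naa80 on the same strand and 159 with Hyal3. Its level and its place in the order are for that reason uncertain.

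Cd44 (ENSMUSG00000005087.17, chr2:102811141-102901665, minus strand), the main hyaluronan receptor of leukocytes and many other cells, reached 184, 164 and 178 CPM in the R/R lungs and 155, 155 and 170 CPM in the WT lungs. R/R replicate 2 lay below WT replicate 3, and the log2 fold change was 0.13 (SE 0.06, 95% interval -0.01 to 0.28). Stab1 (ENSMUSG00000042286.13, chr14:31139013-31168641, minus strand), a scavenger receptor of macrophages and sinusoidal endothelium, reached 207, 173 and 236 CPM in the R/R lungs and 178, 186 and 183 CPM in the WT lungs. R/R lungs held both the lowest and the highest value, the WT lungs lay within a narrow band, and the log2 fold change was 0.17 (SE 0.09, 95% interval -0.03 to 0.37). Stab1 shares 112 exon bases, 1.09% of its exon length, with Nt5dc2 on the opposite strand.

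Macrophage markers are given beside these receptors because macrophages carry both. The 6 alveolar macrophage markers summed to 823 to 927 CPM in the R/R lungs and 570 to 727 CPM in the WT lungs, without overlap. Of these, 2 were lower and 4 higher, and Chil3 was called (log2 fold change 0.68, edgeR adjusted p = 0.0233). Chil3 made up most of each sum, at 582.5 to 664.7 CPM in R/R lungs and 340 to 488.6 CPM in WT lungs. Siglecf and Ear2 also lay higher in R/R lungs without overlap, and Marco, Fabp4 and Car4 overlapped. The 8 interstitial macrophage and monocyte markers summed to 271 to 289 CPM and 243 to 285 CPM, with 4 lower and 4 higher, and Mrc1 was called (log2 fold change 0.42, edgeR adjusted p = 0.0486). The part of macrophage RNA in the Cd44 and Stab1 values was not tested. In whole-lung RNA, fewer cells of a type and less RNA per cell cannot be told apart.

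Over the 7 members that passed the filter, 3 had lower and 4 had higher mean levels in R/R lungs. Their median log2 fold change was 0.03, beside 0.005 over all genes tested. The count of members called lower was 1, beside 1.10% of all genes tested, and the count whose lungs did not overlap between genotypes was also 1, beside 18.7%. Both counts are Cemip, which was chosen on this contrast, so nothing is read from them. Hyal1 kept its direction in 11 of 13 alternative fits and Hyal2 in 12 of 13, and the other 5 kept theirs in 13 of 13.

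The rest of the pathway was described by 39 further genes of hyaluronan metabolism and binding, listed by function, of which 29 passed the filter. Mean levels in R/R lungs were lower for 9 and higher for 20 of these, and the median log2 fold change was 0.07. A single gene was called, Cemip2 in the lower direction, beside 1.75% called among all genes tested. A further 7 had an unadjusted p below 0.05 in edgeR without being called. The share of all genes tested below that unadjusted threshold was not taken. This count and those like it further on are therefore not read as an excess. In 8 of the 29 the lungs of the 2 genotypes did not overlap (6 with R/R above WT and 2 below), beside 18.7% of all genes tested.

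Cemip2 (ENSMUSG00000024754.13, chr19:21778342-21858360, plus strand), the paralogue of Cemip that cuts hyaluronan at the cell surface, was expressed at a far higher level than Cemip. It reached 30.5, 30.2 and 32.7 RPKM in R/R lungs and 49.8, 40.2 and 37.1 RPKM in WT lungs, against 0.0831 to 0.749 RPKM for Cemip over the 6 lungs. In CPM the values were 260, 257 and 279 in R/R lungs and 424, 343 and 316 in WT lungs. Every R/R lung lay below every WT lung, and the highest lung was WT replicate 1, whereas for Cemip it was WT replicate 2. In R/R lungs Cemip2 fell by 0.44 as a log2 value (SE 0.09, 95% interval -0.65 to -0.24, edgeR adjusted p = 0.0425).

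This Cemip2 call held under 7 of 7 other tools, scalings, filters and designs, with adjusted p of at most 0.0457. Of 6 fits that each left out 1 lung, only the edgeR fit without WT replicate 3 kept it (adjusted p = 0.00624), and the log2 fold change over these fits was -0.53 to -0.31. It was lost without R/R replicate 1 (0.107), 2 (0.164) or 3 (0.0834) and without WT replicate 1 (0.101) or 2 (0.0771), all adjusted p from edgeR. An opposite-strand gene, AC148016.1, shares 97 exon bases with Cemip2, or 1.14% of its exon length.

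**Figure D2:**
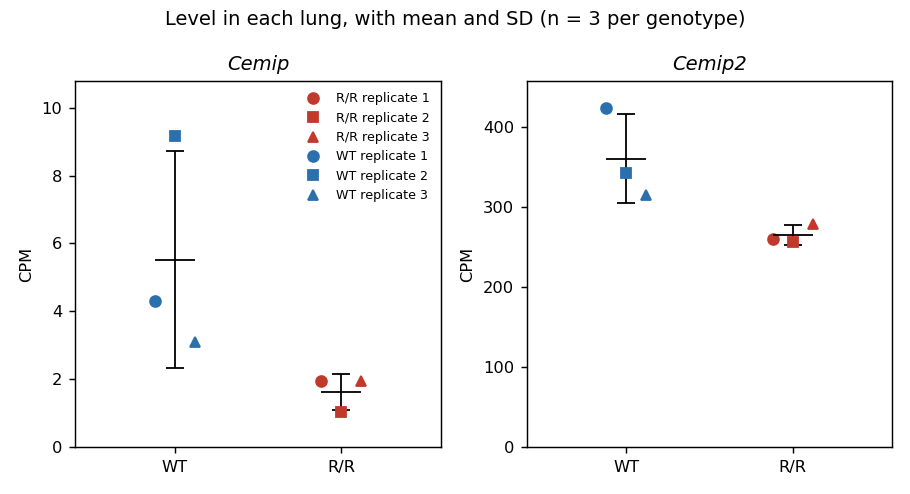
CPM of Cemip (left) and Cemip2 (right) in each lung, with the black bar at the mean and whiskers of 1 SD (n = 3 per genotype); blue symbols are WT lungs and red symbols are R/R lungs. All 3 R/R lungs lie below all 3 WT lungs in both panels, at 1.02 to 1.94 against 3.10 to 9.16 CPM for Cemip and at 257 to 279 against 316 to 424 CPM for Cemip2.

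Among the other degrading genes, 5 of 8 passed the filter, and the 4 besides Cemip2 had higher mean levels in R/R lungs without being called. Hyal3, which lies beside Hyal1 and shares exon bases with it, reached 0.826, 0.798 and 0.816 RPKM in R/R lungs and 0.530, 0.567 and 0.842 RPKM in WT lungs (log2 fold change 0.33, SE 0.30, edgeR adjusted p = 0.683). Hexa, which encodes a subunit of a lysosomal exoglycosidase, had a log2 fold change of 0.15, and Gusb, which encodes the lysosomal beta-glucuronidase, of 0.11. Spam1, the sperm hyaluronidase, had 0 counts in all 6 lungs, and Hyal4 and Hyal5 had at most 3 counts in any lung.

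The 7 genes that make the sugar precursors all passed the filter and all had higher mean levels in R/R lungs. Their median log2 fold change was 0.09, and 0 were called by edgeR (1 at an unadjusted p below 0.05). The largest values were those of Gfpt2 and Gnpnat1. Gfpt2, an isoform of the enzyme that opens the hexosamine pathway, reached 1.69, 1.95 and 2.12 RPKM in R/R lungs and 1.11, 0.967 and 1.79 RPKM in WT lungs (log2 fold change 0.57, SE 0.21, edgeR adjusted p = 0.219). WT replicate 3 overlapped the R/R lungs, and the edgeR adjusted p was 0.0125 without it and 0.241 to 0.536 when any other lung was left out. Gnpnat1, which acetylates glucosamine-6-phosphate, had 5 to 12 counts per lung (log2 fold change 0.47, SE 0.45, edgeR adjusted p = 0.715).

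Of 8 further receptor and binding genes, 7 passed the filter, 3 lower and 4 higher in R/R lungs. None was called by edgeR, and 4 had an unadjusted p below 0.05, a count with no share over all genes beside it. Stab2, the scavenger receptor that clears hyaluronan from lymph and blood, reached 2.77, 3.11 and 3.06 CPM in the R/R lungs and 4.07, 4.75 and 4.62 CPM in the WT lungs. All R/R lungs lay below all WT lungs, but the difference did not pass the test (log2 fold change -0.59, SE 0.19, edgeR adjusted p = 0.161, and 0.156 to 0.392 over all its alternatives). Stab1 and Stab2, which encode related receptors, thus had log2 fold changes of opposite sign, neither of them called.

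Lyve1, the hyaluronan receptor of lymphatic endothelium and of some tissue macrophages, reached 350, 310 and 282 CPM in the R/R lungs and 282, 192 and 247 CPM in the WT lungs (log2 fold change 0.39, SE 0.12, edgeR adjusted p = 0.156). With no filter beyond 1 count in total, the edgeR adjusted p was 8.82e-07. Its other edgeR, DESeq2 and limma-voom alternatives gave 0.0366 to 0.376. Values of R/R replicate 3 and WT replicate 1 were almost equal, so the genotypes were not separated. The 7 lymphatic endothelial markers, a list that includes Lyve1 itself, summed to 581 to 664 CPM in the R/R lungs and 476 to 552 CPM in the WT lungs, with 6 of 6 tested markers higher and 0 called. Without Lyve1 the other 6 summed to 314, 277 and 299 CPM in the R/R lungs and to 270, 284 and 276 CPM in the WT lungs, which overlapped, so the separation of the full sum rests on Lyve1. The part of lymphatic RNA in the Lyve1 values was not tested. Tlr2, a receptor reported to sense hyaluronan fragments and named here after its values were seen, reached 30.6, 26.5 and 27.9 CPM in the R/R lungs and 21.4, 21.5 and 23.1 CPM in the WT lungs. Its lungs did not overlap and its edgeR adjusted p was 0.0558 (log2 fold change 0.37, SE 0.08), while DESeq2 gave an adjusted p of 0.0411 and the range over its alternatives was 0.00876 to 0.206. The lowest of these came from edgeR with no filter beyond 1 count in total.

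Matrix genes that bind hyaluronan were measured by 10 of 16 listed genes, of which 5 had lower and 5 had higher mean levels, and edgeR called 0 (1 at an unadjusted p below 0.05). Tnfaip6 (TSG-6), which transfers heavy chains onto hyaluronan, was counted with 20, 36 and 16 read pairs in R/R lungs and 3, 14 and 15 in WT lungs (log2 fold change 1.17, SE 0.49, edgeR adjusted p = 0.308). R/R replicate 3 stood 1 count above WT replicate 3. Hapln1, a link protein that ties proteoglycans to the chain, was counted with 14, 24 and 17 read pairs in R/R lungs and 28, 38 and 24 in WT lungs (log2 fold change -0.70, SE 0.32, edgeR adjusted p = 0.358). Vcan, the large hyaluronan-binding proteoglycan of the lung interstitium, spanned 11.5 to 24.0 CPM in the R/R lungs and 9.99 to 16.1 CPM in the WT lungs (log2 fold change 0.20, SE 0.26, edgeR adjusted p = 0.801). Acan and Ambp had 0 counts in all lungs.

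**Figure D3:**
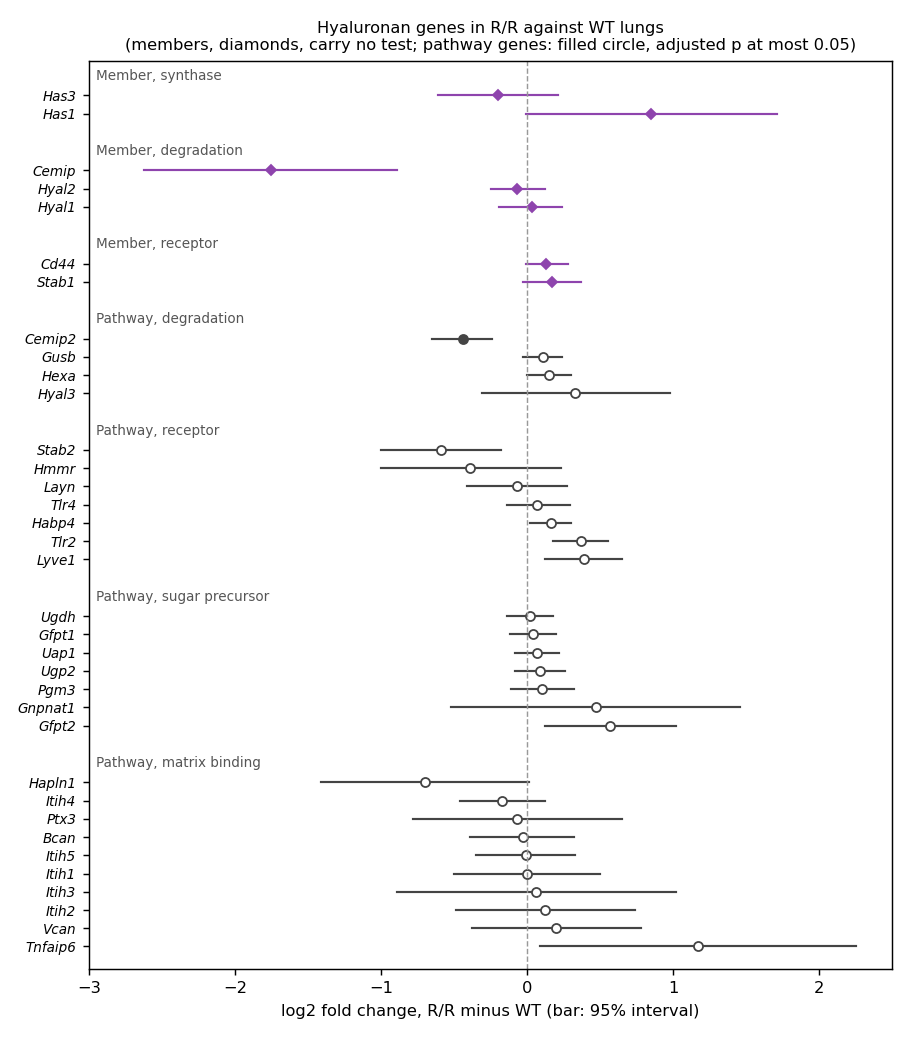
Log2 fold change of R/R over WT lungs with its 95% interval for the 7 members tested (purple diamonds, with no test, since they were chosen with this contrast known) and for other hyaluronan genes tested (grey circles), grouped by role, with circles filled where the adjusted p over 17120 genes was at most 0.05. Cemip2 at -0.44 is the only filled circle, Cemip lies at -1.75, and the sugar precursor genes all lie to the right of 0.

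Genes near Cemip were examined to see whether the difference extended along chromosome 7. Of 29 genes whose start lay within 500 kb of the Cemip start, 15 passed the filter, 8 with lower and 7 with higher mean levels in R/R lungs and a median log2 fold change of -0.01. None was called by edgeR, DESeq2 or limma-voom, and 1 had an unadjusted p below 0.05. That gene, Il16, which encodes a cytokine, differed by -0.24 (SE 0.11, edgeR adjusted p = 0.348). The nearest tested gene on the upstream side, Abhd17c, a depalmitoylase gene, starts 65.4 kb away and had a log2 fold change of -0.01. On the other side the nearest was Gm49493, 194 kb away, at 0.25 (SE 0.37). Widening the window to 1000 kb also gave 0 calls.

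**Figure D4:**
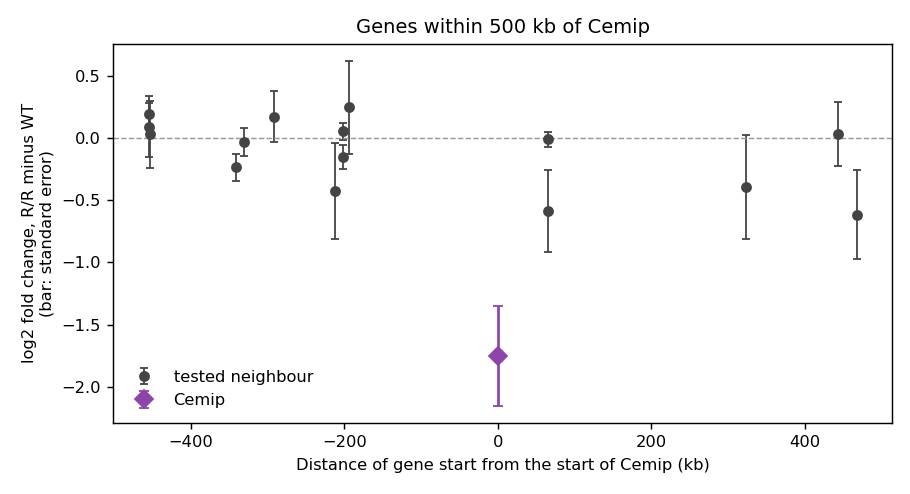
Log2 fold change of R/R over WT with its standard error for Cemip (purple diamond) and the 15 tested genes that start within 500 kb of it (grey points), against the distance of gene starts in kb. Cemip lies at -1.75, below all its neighbours, 0 of which were called.

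Profiles most like that of Cemip were sought among the 14200 genes whose log2 CPM averaged 1 or more, by the root mean square difference between log2 CPM values centred on their mean over the 6 lungs. This measure includes the difference between genotypes, so the fold changes of the genes it finds are given with no test, and their shared high and low lungs follow from how they were chosen. The nearest was Adamts17 (0.383), a secreted metalloproteinase, followed by Eln (0.407), the elastin gene, Adamts12 (0.428), a second metalloproteinase of the same family, Mfap4 (0.442), which encodes a microfibril-associated protein, and Col6a4 (0.458), a collagen VI chain.

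Eln reached 818, 427 and 483 CPM in the R/R lungs and 1140, 1820 and 1170 CPM in the WT lungs. Mfap4 reached 429, 494 and 485 CPM in the R/R lungs and 1270, 1620 and 913 CPM in the WT lungs. Log2 fold changes of the 5 genes ran from -1.44 for Mfap4 to -1.03 for Col6a4, beside -1.75 for Cemip. As for Cemip, the highest lung of each was WT replicate 2, and the lungs of the genotypes did not overlap. Eln and Mfap4 were measured with far more counts than Cemip.

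**Figure D5:**
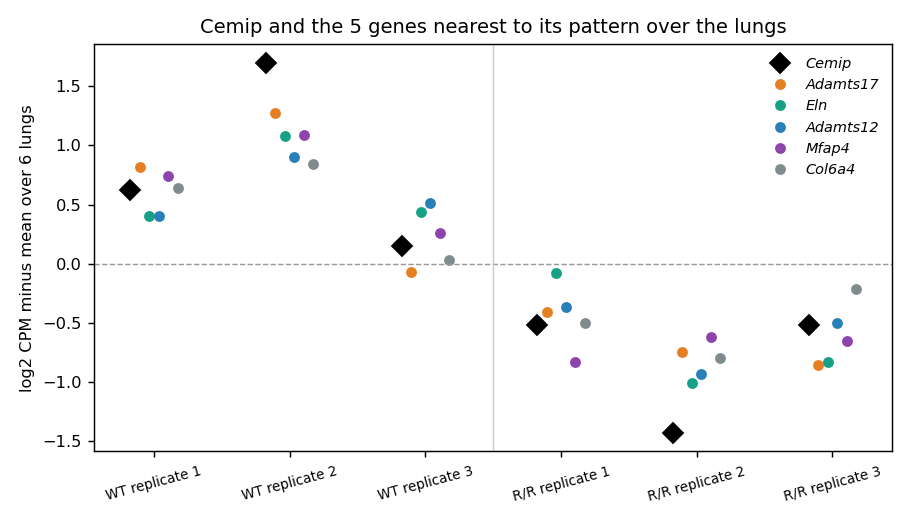
Log2 CPM minus its mean over 6 lungs for Cemip (black diamonds) and the 5 genes nearest to it (coloured points, offset sideways), with WT lungs on the left and R/R lungs on the right. Every gene has its highest value in WT replicate 2, where Cemip is at 1.70, and Cemip has its lowest, -1.43, in R/R replicate 2.

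Markers of other cell types that could carry Cemip or its nearest genes are set beside these values. The 8 fibroblast markers summed to 4120 to 4410 CPM in the R/R lungs and 4820 to 5240 CPM in the WT lungs, without overlap, with 6 lower, 2 higher and 0 called. Cardiac muscle markers, of which the lung holds some in its pulmonary veins, summed to 55.5, 83.0 and 104 CPM in the R/R lungs and 143, 213 and 76.6 CPM in the WT lungs. Their groups overlapped, 4 of 4 tested markers were lower with 0 called, and WT replicate 2 had the highest sum, as it had the highest Cemip. WT replicate 3, however, was the lowest lung for Myh6 (1.76 CPM), Myl7 (0.468 CPM) and Tnnt2 (6.09 CPM). Cemip in that lung lay above all R/R lungs. Actc1 made up 68.2 of the 76.6 CPM of WT replicate 3. The 9 cartilage markers, which mark the large airways, summed to 4.27 to 5.48 CPM in the R/R lungs and 6.46 to 8.20 CPM in the WT lungs. Of these, 3 were tested, all lower and 0 called, and Col9a1, Matn1 and Acan were at 0. Each of the 3, Col11a2, Hapln1 and Sox9, overlapped between the genotypes, although the sum of the list did not. Col11a2, the largest part of the sum, reached 3.004 CPM in R/R replicate 3 and 2.815 CPM in WT replicate 2. The part of Hapln1 in the separation of the sum was not tested. Hapln1, 1 of the 3 tested, and Acan are also hyaluronan pathway genes, so the 2 lists are not independent. The 5 smooth muscle markers summed to 436 to 524 CPM and 466 to 648 CPM, with 4 lower, 1 higher and 0 called. The part of each of these sources in the Cemip difference was not tested.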

How the data were processed

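RNA from whole lungs of 3 R/R mice and 3 WT littermates was sequenced as pairs of 150-base reads. Per the labels and file header, the authors aligned reads to GRCm38 (mm10) using HISAT2 2.1.0. They deposited unnormalized counts, made per gene by featureCounts 2.0.1 with GENCODE M25, without regard to strand and without multi-mapping pairs. All 6 deposited columns hold whole raw counts and none was rounded. In the unit table written for the re-analysis, 1 of them stands as an estimated count, a workaround for an automatic check that misread the comment line, and not a property of the deposited file. Labels name DESeq2 and the supplement edgeR for differential expression. The labels give an RNeasy extraction and the supplement Trizol.

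Groups and replicate numbers came from the labels. Of 56262 identifiers, 55141 matched a symbol in the GENCODE M21 gene names and 1121 did not. Counts were filtered by filterByExpr (minimum count 10, total 15), scaled by TMM and tested by the quasi-likelihood functions glmQLFit and glmQLFTest of edgeR 4.0.16 (R 4.3.3, limma 3.58.1). A call is an adjusted p of at most 0.05 after Benjamini-Hochberg correction over 17120 genes. Count intervals and detection limits hold counting error alone. In counts simulated for this comparison over 17120 genes, 91% of 2-fold and 100% of 4-fold changes were recovered. The changes were placed in a sample of genes whose average log2 CPM was at least 1. These shares therefore do not apply to lower genes such as Has1, Hyal3, Tnfaip6, Hapln1 and Gnpnat1.

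The members, gene lists and tests were chosen with earlier results of these data known. Named genes were the 8 members, called pathway genes, the 2 largest fold changes per role, Lyve1, Cemip2, Vcan, Hyal3, called or nearest genes within 500 kb of Cemip, the 5 genes most like Cemip (smallest root mean square difference over the 6 lungs), Rbm47 and Isg15. Others were named after their values were seen. A gene of the pathway list, counted in its totals, is not reported here. Alternatives were DESeq2 1.42.0, limma-voom, other scalings and filters, a replicate block and leaving out each lung.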

Additional observations from a re-analysis of the deposited data

How the results depend on the processing

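The 300 genes called by edgeR became 541 with DESeq2 and 1109 with no filter beyond 1 count in total, and 65 to 621 when 1 lung was left out, lowest without WT replicate 1 and highest without WT replicate 3. The single hyaluronan pathway call became 2 with DESeq2 and 4 with no filter beyond 1 count, and 0 to 3 with 1 lung left out, where only the fit without WT replicate 3 made any. Among the members, the single call, Cemip, was fixed by the choice of that gene and is read as no test. It became 0 with limma-voom, with library sizes without TMM and with a filter of 1 CPM in 3 libraries, and 0 to 1 with 1 lung left out. Cemip kept a lower value in R/R lungs in 13 of 13 alternatives. The 6 ordered neighbour pairs remained 6 under a smaller pseudocount of 0.01 and without TMM. Of the 5 genes most like Cemip, 4 were kept with a lower expression floor. Causes of these changes were not tested.

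Replicate numbers did not pair the lungs: deviations of same-numbered lungs correlated at -0.01, 0 and -0.01, and 0 of 6 lungs correlated best with their own number. With the replicate block, 446 genes and 2 hyaluronan pathway genes (Cemip2 and Lyve1) were called. Depth kept Has2 out of the test, with at most 7 counts in any lung.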

Other observations

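Other marker lists varied as follows beside the hyaluronan genes. The 5 B cell markers summed to 72.0 to 98.6 CPM in R/R lungs and 137 to 172 CPM in WT lungs, with 5 of 5 lower in R/R lungs and 4 called by edgeR. The 6 T cell markers summed to 23.6 to 30.0 CPM and 34.3 to 46.2 CPM, with 6 of 6 lower and 0 called. Blood endothelial markers summed to 3540 to 3720 CPM in R/R lungs and 3580 to 4010 CPM in WT lungs, with 0 of 5 called. Markers of tissues next to the lung were low. Thymus markers summed to 15.8 to 20.1 CPM and 16.9 to 19.8 CPM, with Rag2 at 0. Most of this sum was Cd1d1, at 15.3 to 19.9 CPM in R/R lungs and 16.7 to 19.3 CPM in WT lungs. Airway basal and squamous markers summed to 1.08 to 2.28 CPM and 1.34 to 2.75 CPM, with Dsg3 at 0. Adipose markers summed to 17.3, 17.2 and 27.5 CPM in R/R lungs and to 9.29, 11.6 and 27.4 CPM in WT lungs. In replicates 1 and 2 most of the sum was Cidec, at 16.71 and 15.3 CPM in R/R lungs and 8.989 and 11.15 CPM in WT lungs. Adipoq was counted only in replicate 3 of each genotype, with 10 read pairs in R/R and 17 in WT. Plin1 and Cfd were highest in the same lungs. None of these last 3 lists held a called gene.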
